A study of Mus musculus with 12 samples.

Results

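The expression of translation initiation factors was followed in C57BL/6 offspring aged 4 weeks, in liver and in quadriceps muscle, after gestation with or without maternal taurine. The members were chosen by name, as all genes in the probe annotation with a symbol that starts with Eif1 to Eif6, without the X- and Y-linked pair Eif2s3x and Eif2s3y. These were 45 of the 18193 genes that had a probe set with a single gene symbol. Each gene was represented by 1 probe set per tissue, selected on the highest mean level of the 6 samples of that tissue, so that the level itself chose the probe set and is given as a description. All dams received a normal protein diet with 20% casein (NP), and the NP+tau dams also had 1% taurine in the drinking water from day 1 of pregnancy until birth. Affymetrix mouse arrays gave log2 expression values for 3 NP and 3 NP+tau samples of each tissue, 12 samples in all. By the study's methods, no 2 pups shared a dam, and both tissues were taken from the same animals. A difference is the NP+tau mean less the NP mean in log2 units, where 1 is a doubling of signal, with the standard error (SE) and p of limma, n = 3 per group throughout.

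Initiation is the step at which a ribosome is assembled on the start codon of an mRNA. The eIF4F complex, made of the cap-binding protein eIF4E, the scaffold eIF4G and the helicase eIF4A, prepares the mRNA. The factor eIF2 brings the initiator tRNA, eIF3 holds the small subunit, eIF1 and eIF1A check the start codon, and eIF5 and eIF5B let the large subunit join. A pair of switches is widely known, both of which act on proteins and are not read by these arrays: stress kinases phosphorylate eIF2 and so block its recycling by eIF2B, and mTOR phosphorylates the 4E-BPs, which otherwise hold eIF4E. In growing liver and muscle these switches couple protein synthesis to amino acids and insulin.

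Several features of the samples bear on all values below. Among the liver arrays, that of NP+tau replicate 1 was unlike the others, with a median absolute deviation from the median array of 0.450 against 0.0769 to 0.169 for the other livers. In both tissues, Xist, the RNA that coats the silenced X chromosome, had levels of 10.8 to 11.8 in all samples other than NP+tau replicates 2 and 3, where its levels were 5.07 to 5.96. Sex therefore differed between the groups as arrayed, whereas the methods state that each group held both sexes. The tissue labels fitted their markers, with mean levels of 13.4 to 13.9 for hepatocyte genes in liver and 14.0 to 14.2 for muscle fibre genes in muscle. Levels in the 2 tissues were normalised apart and are set side by side without a test. In tissue samples like these, fewer cells of a type and less RNA per cell cannot be told apart.

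In NP+tau liver, 34 of the 45 initiation factor genes had a lower mean than in NP liver and 11 a higher mean. The median difference was -0.21, and the genes ranged from -0.83 for Eif4g3 to 0.55 for Eif4a3. With each array centred on its median, 29 genes lay below 0 and the median was -0.10. Over all 14202 genes measured above the filter on dim probe sets in liver, 53.7% lay below 0, with a median of -0.04. Among genes with a mean of at least 8, a level chosen after the data had been seen, 24 of 31 initiation factor genes and 60.9% of 3605 genes lay below 0. No initiation factor passed limma's test, in which 0 of 29274 probe sets (0%) had an adjusted p under 0.05. At an unadjusted p under 0.05 there were 1372 probe sets, and the lowest adjusted p of limma was 0.718. Of the 44 initiation factor genes tested, 1 was lower at an unadjusted p under 0.05 (4.32% of all genes) and 0 were higher (0.831% of all genes). The groups did not overlap for 6 lower genes, 13.3% of the initiation factors against 9.22% of all genes, and for 0 higher genes, against 5.95% of all genes. Eif5a2 was not tested in liver, because its highest value of 4.12 was under the limit of 4.60.

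In NP+tau muscle, 27 of the 45 genes had a higher mean than in NP muscle and 18 a lower mean, with a median difference of 0.07 and a range from -0.36 for Eif3f to 0.75 for Eif2b4. All 45 passed the filter in muscle. Of all 13812 genes in muscle, 45.4% lay below 0, with a median of 0.03. With a mean of at least 8, the share below 0 was 42.1% of 38 initiation factor genes and 31.8% of 4198 genes. Again 0 of 29274 probe sets (0%) had an adjusted p of limma under 0.05, with 1793 at an unadjusted p under 0.05 and a lowest adjusted p of 0.342. No initiation factor had an unadjusted p under 0.05, against 4.24% of all genes higher and 2.09% lower. Non-overlapping groups were found for 4 higher genes, Eif4a2, Eif2ak1, Eif1b and Eif1ax, which is 8.89% against 8.44% of all genes. They were found for 2 lower genes, Eif3f and Eif2ak2, which is 4.44% against 7.25% of all genes. These counts in muscle were close to or under those of genes at large.

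**Figure D1:**
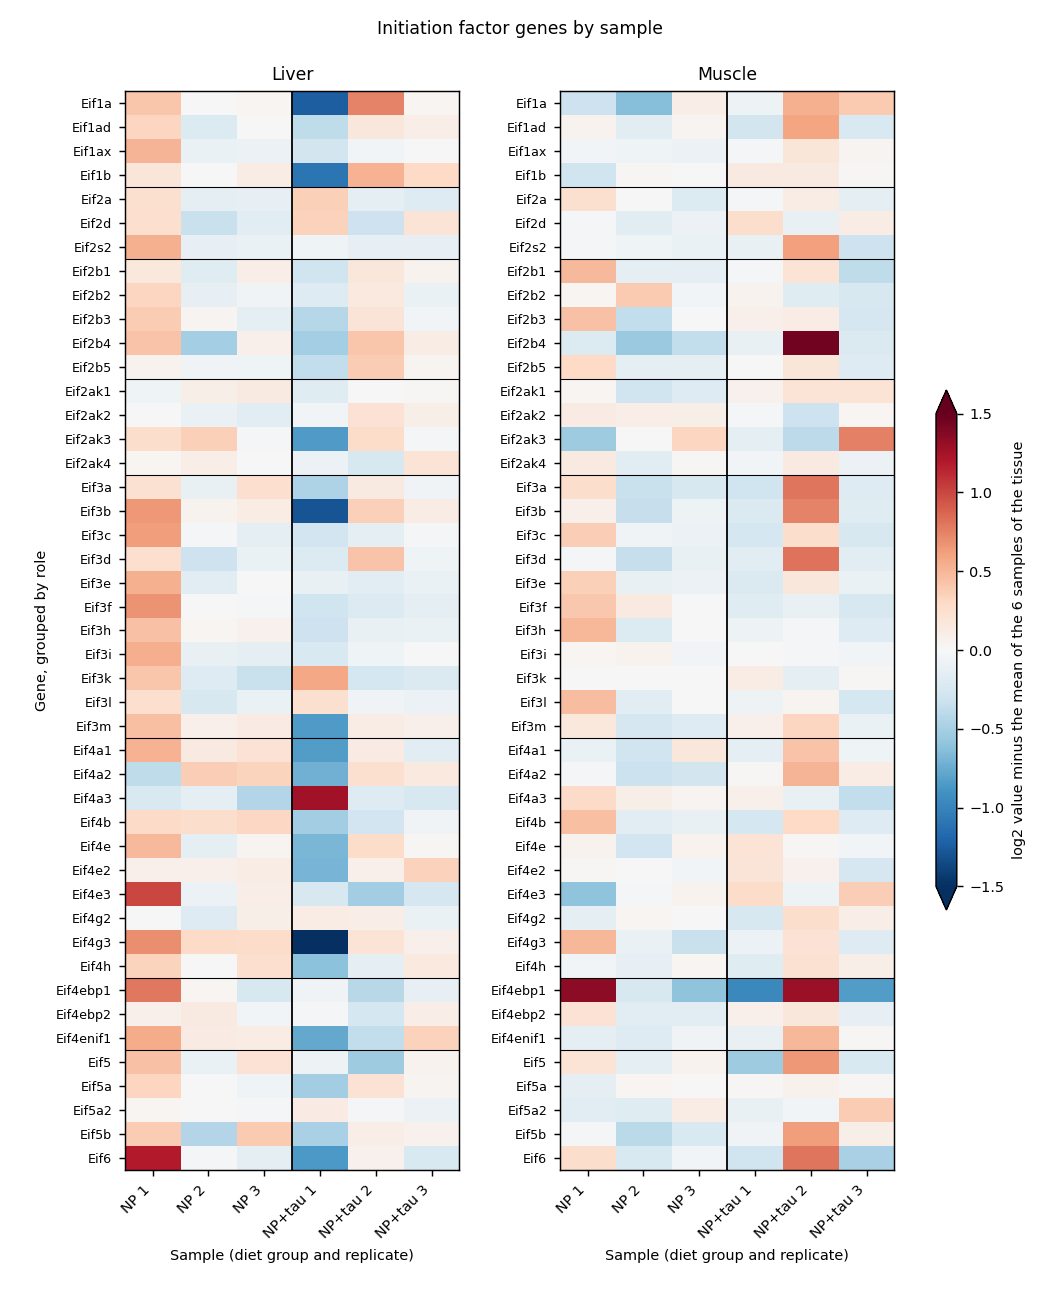
Each row is 1 of the 45 initiation factor genes, grouped by role, and each column 1 sample of liver (left) or muscle (right). Colours give the log2 value minus the mean of the 6 samples of the tissue, with the scale ending at 1.5 in either direction. Liver NP 1 is mostly red, being the highest of 6 for 24 genes, and liver NP+tau 1 mostly blue, being the lowest for 29 genes, while muscle NP+tau 2 is the highest for 19 genes.

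Single samples set much of this pattern. Liver NP replicate 1 had the highest value of all 6 livers for 24 of the 45 genes, and NP+tau replicate 1, the unlike array, had the lowest for 29. The median deviation of the 45 genes from their own means was 0.339 in the former and -0.303 in the latter, and -0.0263 to 0.0595 in the other 4 livers. Without NP replicate 1, 29 genes lay below 0 with a median of -0.08, and without NP+tau replicate 1, 30 genes with a median of -0.06. Without both, 22 genes lay below and 23 above 0, with a median of 0.00, when 47.9% of all genes lay below 0. Leaving out the NP liver that was highest for most genes and the NP+tau liver that was lowest for most was bound to shrink the difference. These counts are therefore a description and not a test. Among the genes still below 0 without both samples were Eif4b at -0.46, Eif4e3 at -0.39 and Eif5 at -0.30.

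Muscle had its own pair of high samples. NP+tau replicate 2 was the highest of 6 for 19 genes, and NP replicate 1 for 16. Without NP+tau replicate 2, the balance turned, with 27 genes below 0 and a median of -0.03. Without NP replicate 1, 9 genes lay below 0 and the median was 0.11. The direction of the 45 genes as a group in muscle thus depended on which of these samples was used.

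**Figure D2:**
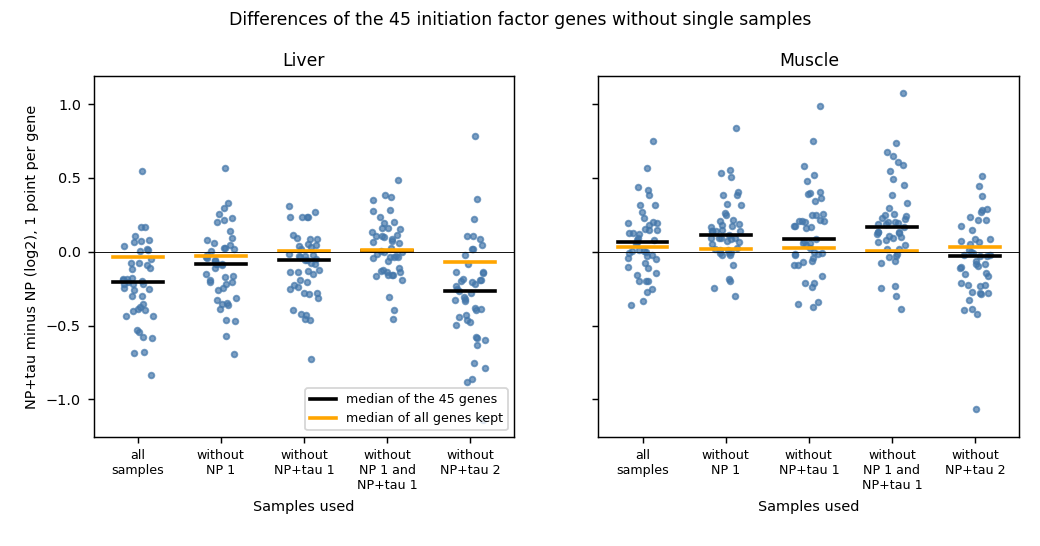
Each point is the NP+tau minus NP difference (log2) of 1 of the 45 initiation factor genes, with all samples and without the named samples, in liver (left) and muscle (right). Black lines are the median of the 45 genes and orange lines the median of all genes kept. The liver median moves from -0.21 to 0.00 without replicate 1 of both groups, and the muscle median from 0.07 to -0.03 without NP+tau replicate 2.

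The members that bind the cap and unwind the mRNA held the liver genes with the smallest p. Of these 10 genes of the eIF4 group, 8 lay below 0 in liver, with a median of -0.33, and 3 in muscle, with a median of 0.09. Eif4b encodes an RNA-binding partner that stimulates the helicase eIF4A. Its liver values were 10.13, 10.10 and 10.14 in NP replicates 1 to 3 and 9.32, 9.55 and 9.78 in NP+tau replicates 1 to 3. The NP livers were nearly alike and every NP+tau liver lay below them. The difference was -0.58 (SE 0.18, unadjusted p = 0.016, adjusted p of limma = 0.718), and it was -0.46 without replicate 1 of both groups. The other probe sets of the gene differed by -0.92 and -0.22 in liver. In muscle, Eif4b was at 11.10, 10.48 and 10.54 in NP and at 10.39, 10.95 and 10.46 in NP+tau, with groups that overlapped and a difference of -0.11 (SE 0.24).

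Eif4a1, the main helicase of eIF4F, was at 11.95, 11.56 and 11.63 in NP liver and at 10.58, 11.54 and 11.26 in NP+tau liver. The groups did not overlap, but replicate 2 of NP+tau lay just under the lowest NP liver. The difference was -0.58 (SE 0.28, unadjusted p = 0.074), and it was -0.19 without replicate 1 of both groups. A further probe set differed by -0.64, whereas the remaining probe set of the gene was at 11.61 in NP+tau replicate 1, its highest liver value, and differed by 0.11. That last probe set was the brightest in muscle, at 10.96, 10.76 and 11.23 in NP and 10.92, 11.48 and 10.99 in NP+tau, with overlapping groups and a difference of 0.15 (SE 0.21).

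Eif4a2, a close relative of Eif4a1, was 1 of the genes with separate groups in muscle. It was at 12.15, 11.85 and 11.90 in NP muscle and at 12.19, 12.69 and 12.28 in NP+tau muscle. All NP+tau muscles lay above all NP muscles, although NP+tau replicate 1 and NP replicate 1 were nearly equal. The difference was 0.42 (SE 0.18, unadjusted p = 0.055). In liver, its difference was -0.22 (SE 0.33). Eif4a3, a helicase of the exon junction complex rather than of eIF4F, was dim in both tissues. It was at 4.91, 5.0 and 4.71 in NP liver and at 6.40, 4.95 and 4.90 in NP+tau liver, so that its difference of 0.55 came from NP+tau replicate 1. Its muscle values were 5.11, 4.91 and 4.87 in NP and 4.91, 4.71 and 4.46 in NP+tau, with a difference of -0.27 (SE 0.17).

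Eif4g3, a scaffold of eIF4F, was at 8.50, 8.09 and 8.08 in NP liver and at 6.28, 8.01 and 7.88 in NP+tau liver. Only NP+tau replicate 1 was far from the rest. The difference of -0.83 (SE 0.46, unadjusted p = 0.114) was accordingly -0.28 without that sample, and in muscle it was -0.05 (SE 0.24). Eif4h, a further partner of eIF4A, was at 11.14, 10.80 and 11.05 in NP liver and at 10.19, 10.66 and 10.95 in NP+tau liver, with a difference of -0.40 (SE 0.24). Its groups overlapped, as they did in muscle, where it differed by 0.09 (SE 0.16). Eif4g2, a scaffold that lacks the eIF4E site, differed by 0.08 in each tissue. Eif4g1 was not analysed here, since it had no probe set with a single symbol, and the same holds for Eif2s1.

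Among the cap-binding proteins, Eif4e itself was at 10.06, 9.45 and 9.62 in NP liver and at 8.89, 9.86 and 9.60 in NP+tau liver. The highest and the lowest value were again those of replicate 1 of each group. The difference was -0.26 (SE 0.30), and 0.19 without replicate 1 of both groups. The other, dimmer probe sets of the gene went the other way in liver, at 0.10, 0.39 and 0.18. They differed by 0.13, -0.25 and -0.03 in muscle. In muscle, Eif4e was at 10.53, 10.19 and 10.53 in NP and at 10.69, 10.49 and 10.43 in NP+tau, with a difference of 0.12 (SE 0.16). Eif4e2, which binds the cap without recruiting eIF4G, differed by -0.18 (SE 0.28) in liver and 0.01 (SE 0.16) in muscle. A nearly as bright probe set of Eif4e2 differed by 0.33 in liver and 0.29 in muscle. The dimmer ones differed by -0.01, -0.04 and -0.17 in liver and by 0.02, -0.10 and 0.29 in muscle.

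Eif4e3, a cap-binding relative of eIF4E, went opposite ways in the 2 tissues. In liver it was at 7.66, 6.58 and 6.77 in NP and at 6.42, 6.14 and 6.42 in NP+tau, without overlap, with a difference of -0.68 (SE 0.30, unadjusted p = 0.061). In muscle it was at 8.29, 8.88 and 8.96 in NP and at 9.18, 8.83 and 9.27 in NP+tau, with 1 NP+tau muscle inside the NP range and a difference of 0.38 (SE 0.23, unadjusted p = 0.131). NP replicate 1 was the highest liver and the lowest muscle. The other probe set of the gene differed by -0.60 in liver and 0.40 in muscle. Of the 44 genes in the test of tissue and taurine together, Eif4e3 was the only one with an unadjusted p under 0.05 (liver minus muscle difference -1.06, SE 0.40, unadjusted p = 0.021, adjusted p of limma = 0.542). It was -0.73 without liver NP replicate 1, -0.85 without muscle NP replicate 1 and -0.53 without replicate 1 of both groups in both tissues. Over all genes in that test, 8.62% had an unadjusted p under 0.05, and 0 of 25622 probe sets (0%) passed after adjustment, with 1999 at an unadjusted p under 0.05. The next were Eif4enif1, Eif2ak2 and Eif3m, at -0.80 (SE 0.38), 0.37 (SE 0.21) and -0.63 (SE 0.36).

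Promoter sequences of this group are shown because the eIF4 genes led the liver differences and several of them hold the same motif. The hexamer CACGTG, an E-box that reads the same on either strand and that MYC and related factors can bind, was searched from 250 bases before to 50 bases after each transcript start in RefSeq sequence of GRCm38.p6. Windows were matched for 36 of the 45 genes, all but Eif1a, Eif2b3, Eif3e, Eif3h, Eif3i, Eif4e3, Eif4ebp1, Eif4g2 and Eif6, and 9 of these (25%) held it, namely Eif1b, Eif3a, Eif3f, Eif3k, Eif4a1, Eif4e, Eif4h, Eif5a and Eif5a2. In the whole table, 8.09% of 27025 genes held it, and 8.91% of the 17491 protein-coding ones. Capitals mark the hexamer, with 12 bases on each side, on the strand of the gene.
Eif4a1, chr11:69672595-69672624, minus strand: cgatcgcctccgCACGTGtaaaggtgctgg
Eif4e, chr3:138527028-138527057, plus strand: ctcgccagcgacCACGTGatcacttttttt
Eif4e, chr3:138527192-138527221, plus strand: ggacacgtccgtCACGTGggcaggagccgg
Eif4h, chr5:134639488-134639517, minus strand: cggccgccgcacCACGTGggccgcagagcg
The 9 genes with the hexamer had a median difference of -0.25 in liver, 7 of them below 0, and the 27 without it a median of -0.12, with 19 below 0. The 9 include Eif5a2, which was under the filter in liver. Without replicate 1 of both groups, the medians were -0.03 (5 of 9 below 0) and 0.06 (12 of 27 below 0). In muscle the medians were 0.12 (2 of 9 below 0) and 0.06 (11 of 27 below 0). Eif4b, the gene with the smallest p in liver, had no such hexamer in its window. Binding was not measured.

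**Figure D3:**
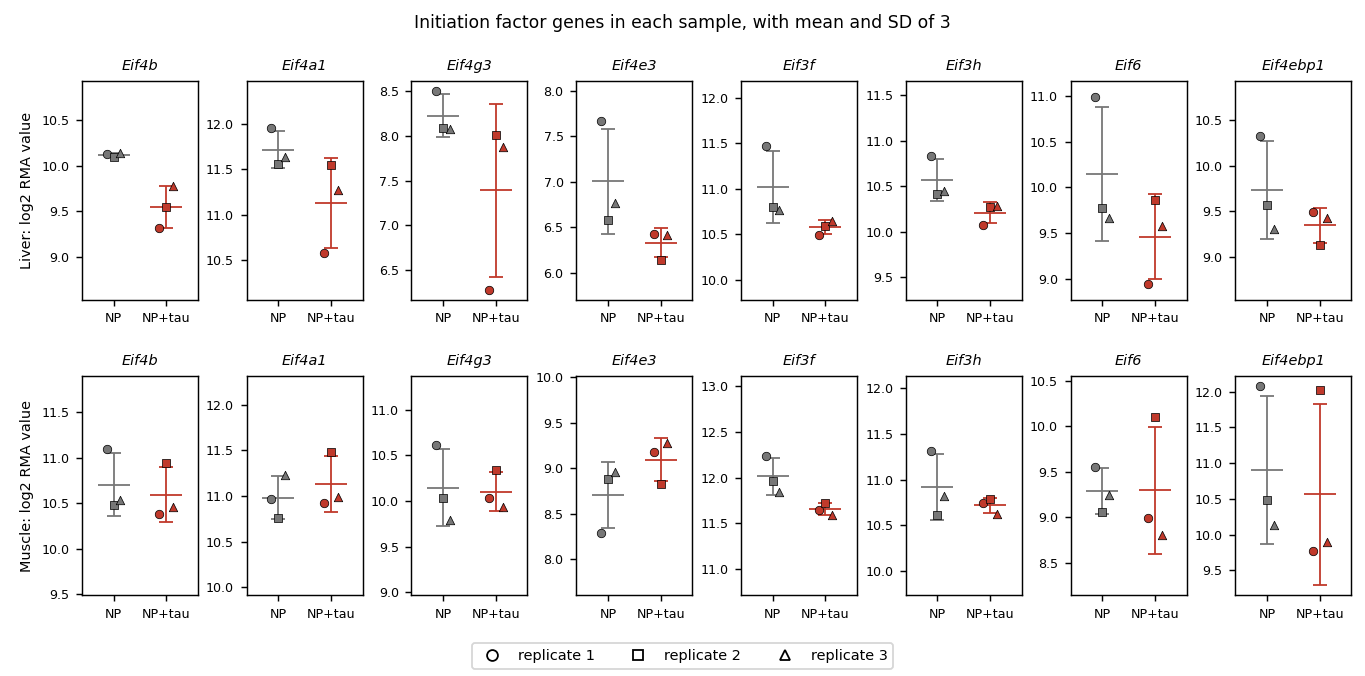
Log2 RMA values (vertical axes, each spanning its own range of at least 2.4) of 8 initiation factor genes in NP (grey) and NP+tau (red) samples of liver (upper row) and muscle (lower row). Marker shapes give the replicate, and horizontal lines with bars give the mean and SD of 3 samples. In liver, the groups overlap for Eif6 and Eif4ebp1 and do not overlap for the other genes shown. In muscle, they overlap for all genes shown but Eif3f. Eif4ebp1 in muscle is near 12 in NP replicate 1 and NP+tau replicate 2 and at 9.77 to 10.49 in the others.

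Of the 3 genes for proteins that hold eIF4E back, all lay below 0 in liver on the probe sets used. In muscle 1, Eif4ebp1, lay below 0 on the probe sets used. Eif4ebp1 encodes 4E-BP1, the repressor that mTOR releases from eIF4E. In muscle it was at 12.08, 10.49 and 10.13 in NP and at 9.77, 12.03 and 9.89 in NP+tau. In each group 1 sample was high, NP replicate 1 and NP+tau replicate 2, and the other 4 were at or below 10.49. The difference of -0.34 had an SE of 0.73 and turned to 0.25 without NP replicate 1, and it was -1.07 without NP+tau replicate 2. A separate probe set showed the same samples high, at 11.96 and 11.61 against 9.50 to 10.21. Mknk2, a kinase of eIF4E named here after its values were seen, was also highest in these muscles, at 13.06 in NP replicate 1 and 13.17 in NP+tau replicate 2 against 11.83 to 12.23 in the others. In liver, Eif4ebp1 was at 10.33, 9.57 and 9.30 in NP and at 9.49, 9.13 and 9.42 in NP+tau, with overlapping groups and a difference of -0.39 (SE 0.29). Eif4ebp2, the related repressor, differed by -0.12 (SE 0.18) in liver and 0.08 (SE 0.17) in muscle. Its other kept probe sets differed by -0.52, -0.14, -0.04 and 0.07 in muscle. Eif4enif1, which carries eIF4E into the nucleus and into processing bodies, was at 8.55, 8.13 and 8.11 in NP liver and at 7.24, 7.62 and 8.34 in NP+tau liver. The value of NP+tau replicate 3 lay inside the NP range, and the difference was -0.53 (SE 0.31, unadjusted p = 0.129). Muscle values were 8.41, 8.36 and 8.50 in NP and 8.44, 9.05 and 8.57 in NP+tau, a difference of 0.27 (SE 0.19).

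Of the 11 subunit genes of eIF3, the scaffold on the small ribosomal subunit, 8 lay below 0 in liver and 7 in muscle. The median was -0.25 in liver and -0.03 in muscle. Eif3f encodes a subunit through which mTOR and its target S6 kinase meet in muscle. On the probe sets used, it was the only member whose groups did not overlap in the same direction in both tissues. A dimmer probe set of Eif6, which was not the one used, was also lower without overlap in both. In liver Eif3f was at 11.47, 10.80 and 10.77 in NP and at 10.49, 10.59 and 10.65 in NP+tau, a difference of -0.44 (SE 0.23, unadjusted p = 0.102). In muscle it was at 12.24, 11.97 and 11.84 in NP and at 11.65, 11.72 and 11.59 in NP+tau, a difference of -0.36 (SE 0.15, unadjusted p = 0.052, adjusted p of limma = 0.707). NP replicate 1 was the highest sample in either tissue, and the NP+tau samples were close together. Without replicate 1 of both groups, the differences were -0.17 in liver and -0.25 in muscle.

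The start of the Eif3f transcript is shown because mRNAs that begin with C and a run of pyrimidines are the class whose translation mTOR controls most strongly, and Eif3f was the only 1 of the 36 matched members with C and at least 4 further pyrimidines at its annotated start. In the table, 3.01% of genes had such a start. Capitals mark the run of 11 pyrimidines from the first transcribed base, in RefSeq sequence of GRCm38.p6.
Eif3f, chr7:108934395-108934430, plus strand: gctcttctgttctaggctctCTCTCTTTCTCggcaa
The arrays measured mRNA level and not its translation.

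Eif3h, a subunit that modulates reinitiation, was at 10.83, 10.42 and 10.45 in NP liver and at 10.08, 10.27 and 10.28 in NP+tau liver. These groups did not overlap, with a difference of -0.35 (SE 0.19, unadjusted p = 0.102), and in muscle the difference was -0.20 (SE 0.20) with overlap. Eif3a, the largest subunit of the core, was at 10.77, 10.43 and 10.79 in NP liver and at 10.07, 10.67 and 10.48 in NP+tau liver, a difference of -0.25 (SE 0.22). In muscle it was at 11.71, 11.11 and 11.21 in NP and at 11.15, 12.25 and 11.25 in NP+tau. The groups of Eif3a overlapped in both tissues, and NP+tau replicate 2 was the highest muscle. Its muscle difference of 0.20 (SE 0.32) was -0.15 without that sample. Eif3m, among the 4 genes with the smallest p between tissues, was at 9.48, 9.11 and 9.15 in NP liver and at 8.18, 9.14 and 9.11 in NP+tau liver, where only NP+tau replicate 1 stood apart. Its muscle values were 9.78, 9.38 and 9.43 in NP and 9.70, 9.95 and 9.53 in NP+tau, with overlap. The remaining subunits differed by -0.54 (Eif3b) to 0.11 (Eif3d) in liver and by -0.20 (Eif3l) to 0.32 (Eif3d) in muscle.

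**Figure D4:**
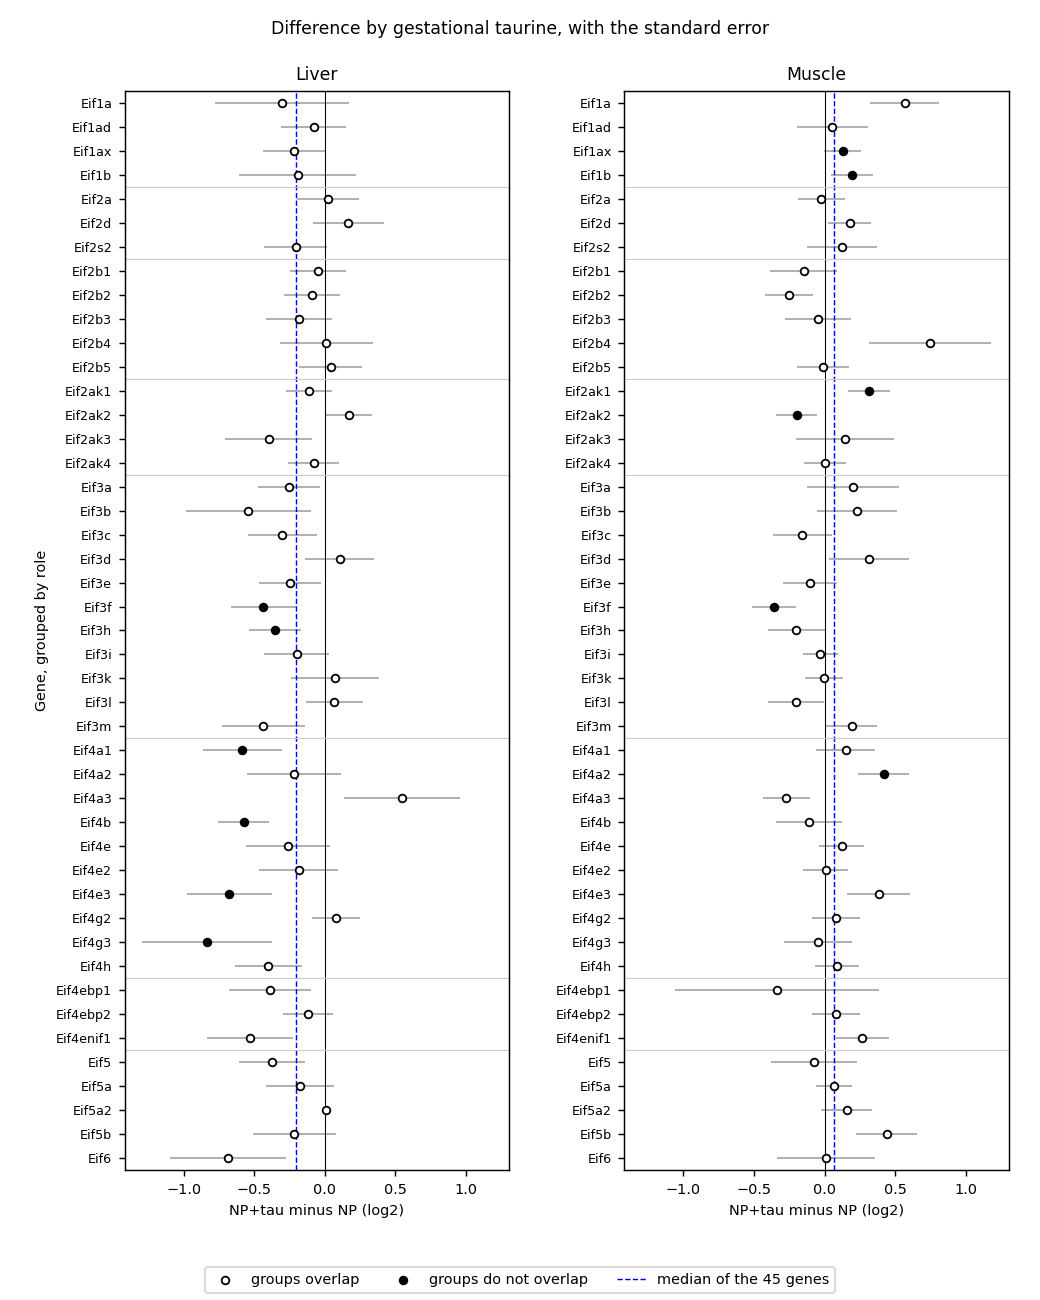
NP+tau minus NP (log2, horizontal axes) for each of the 45 genes in liver (left) and muscle (right), with bars for the standard error of limma. Eif5a2 in liver has no bar because it was not tested. Filled points mark genes whose groups of 3 do not overlap, and the dashed line is the median of the 45 genes, -0.21 in liver and 0.07 in muscle.

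The factors that load and recycle the initiator tRNA ranged from -0.21 (Eif2s2) to 0.17 (Eif2d) in liver. Eif2s2, the beta subunit of eIF2, differed by -0.21 (SE 0.22) in liver and 0.12 (SE 0.25) in muscle. Eif2a and Eif2d, which deliver tRNA by routes other than eIF2, differed by 0.02 and 0.17 in liver and by -0.02 and 0.18 in muscle. The 5 subunits of the exchange factor eIF2B ranged from -0.18 (Eif2b3) to 0.04 (Eif2b5) in liver. Eif2b5, the catalytic subunit, was at 8.06, 7.95 and 7.94 in NP liver and at 7.64, 8.39 and 8.05 in NP+tau liver. It was at 9.22, 8.78 and 8.77 in NP muscle and at 8.92, 9.10 and 8.72 in NP+tau muscle, with a difference of -0.01 (SE 0.19). The groups of Eif2b5 overlapped in both tissues. In muscle, the other eIF2B subunits besides Eif2b4 were between -0.25 and -0.01. Eif2b4, the delta subunit, was at 9.62, 9.27 and 9.45 in NP muscle and at 9.71, 11.27 and 9.60 in NP+tau muscle. Its difference of 0.75 (SE 0.43, unadjusted p = 0.126), the highest of the 45 genes in muscle, was 0.21 without NP+tau replicate 2.

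The 4 kinases of eIF2 each answer a different stress. Eif2ak1, the heme-regulated kinase, was at 8.28, 7.94 and 8.05 in NP muscle and at 8.31, 8.45 and 8.45 in NP+tau muscle, without overlap. Its difference was 0.31 (SE 0.15, unadjusted p = 0.070), but a slightly dimmer probe set of the gene differed by 0.01 in muscle. In liver the difference was -0.11 (SE 0.16). Eif2ak2, the kinase that senses double-stranded RNA, was at 4.66, 4.63 and 4.62 in NP muscle and at 4.52, 4.23 and 4.56 in NP+tau muscle, near the limit of 4.49 for dim probe sets. These groups did not overlap, with a difference of -0.20 (SE 0.15). In liver it was at 5.43, 5.32 and 5.25 in NP and at 5.37, 5.63 and 5.50 in NP+tau, with overlap and a difference of 0.17 (SE 0.17). Eif2ak3, the kinase of endoplasmic reticulum stress, was at 7.41, 7.51 and 7.12 in NP liver and at 6.30, 7.43 and 7.12 in NP+tau liver, a difference of -0.40 (SE 0.31). Muscle values were 6.40, 6.93 and 7.26 in NP and 6.80, 6.54 and 7.69 in NP+tau, a difference of 0.14 (SE 0.35). The groups of Eif2ak3 overlapped in both tissues, and NP+tau replicate 1 was the lowest liver. Eif2ak4, the sensor of amino acid shortage, was at 5.60, 5.67 and 5.56 in NP liver and at 5.48, 5.33 and 5.77 in NP+tau liver. Its muscle values were 5.58, 5.28 and 5.46 in NP and 5.40, 5.57 and 5.35 in NP+tau. On this probe set, the NP and NP+tau values of Eif2ak4 were intermixed, with differences of -0.08 (SE 0.18) and 0.00 (SE 0.15). A dimmer probe set of the gene, near the limit for dim probe sets, differed by -0.46 in liver without overlap. In muscle it differed by -0.15 with overlap.

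The eIF1 group, Eif1a, Eif1b, Eif1ax and the related Eif1ad, was the role in which all members lay below 0 in liver and all above 0 in muscle. Differences were -0.30 to -0.08 in liver and 0.06 to 0.57 in muscle. This held for the probe sets used. Other kept liver probe sets differed by 0.15 (Eif1ad), 0.12 (Eif1ax) and -0.28 (Eif1a). In muscle, those of Eif1ax differed by 0.31 and -0.04, and that of Eif1ad by 0.31. In liver, all 4 lay above 0 when replicate 1 of both groups was left out (Eif1a 0.37, Eif1ad 0.24, Eif1ax 0.06 and Eif1b 0.35). Without NP+tau replicate 1 alone, Eif1ax at -0.14 was the only 1 of the 4 still below 0, and in muscle Eif1ad was -0.23 without NP+tau replicate 2. Eif1a was at 6.58, 6.25 and 6.98 in NP muscle and at 6.81, 7.42 and 7.28 in NP+tau muscle. The groups overlapped through 1 sample, and the difference was 0.57 (SE 0.25, unadjusted p = 0.054), while its other probe set differed by 0.02. Eif1b and Eif1ax did not overlap in muscle, with differences of 0.19 (SE 0.15) and 0.13 (SE 0.13). In liver, Eif1a and Eif1b were lowest in NP+tau replicate 1, at 7.20 and 6.87, and highest in NP+tau replicate 2, at 9.18 and 8.49.

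Among the factors of subunit joining, Eif6, which keeps the large subunit from joining too early, was at 10.99, 9.78 and 9.67 in NP liver and at 8.94, 9.86 and 9.58 in NP+tau liver. Replicate 1 of each group held the extremes and the other 4 livers lay between 9.58 and 9.86. The difference of -0.68 (SE 0.41, unadjusted p = 0.140) was 0.00 without these 2 samples. In muscle, Eif6 was at 9.56, 9.06 and 9.25 in NP and at 8.995, 10.10 and 8.81 in NP+tau, a difference of 0.01 (SE 0.35). The other, dimmer probe set of Eif6 differed by -0.32 in liver and -0.34 in muscle. Its groups did not overlap in either tissue, though in liver the lowest NP value of 5.58 and the highest NP+tau value of 5.57 nearly met. Eif5, which triggers hydrolysis of GTP on eIF2, was at 11.17, 10.63 and 10.95 in NP liver and at 10.65, 10.20 and 10.77 in NP+tau liver, a difference of -0.37 (SE 0.23). Muscle values of Eif5 were 11.07, 10.72 and 10.92 in NP and 10.34, 11.51 and 10.63 in NP+tau, a difference of -0.08 (SE 0.30). The other kept probe sets of Eif5 differed by -0.76, -0.66, -0.58 and -0.53 in liver, without overlap for all but the one at -0.58. In muscle they differed by -0.15, 0.09, 0.41 and -0.06. On the probe sets used, neither gene had separate groups in either tissue. Eif5b, the GTPase of subunit joining, was at 9.29, 8.92 and 9.09 in NP muscle and at 9.26, 9.94 and 9.41 in NP+tau muscle. Its difference was 0.44 (SE 0.21, unadjusted p = 0.079), and 0.24 without NP+tau replicate 2.

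Eif5a, which helps ribosomes through difficult peptide bonds, was at 13.09, 12.77 and 12.71 in NP liver and at 12.25, 12.99 and 12.80 in NP+tau liver, a difference of -0.18 (SE 0.24). In muscle it was among the steadiest, at 12.78, 12.95 and 12.93 in NP and at 12.94, 12.99 and 12.93 in NP+tau, a difference of 0.07 (SE 0.13). Its relative Eif5a2 was near background in both tissues, with a muscle difference of 0.16 (SE 0.18).

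Taken by direction, 22 genes were below 0 in liver and above 0 in muscle, 6 the reverse, 12 below 0 in both and 5 above 0 in both. The tissues share animals, so that these counts are a description.

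Other genes of the translation pathway, are given here by role. Of 10 elongation factor genes, 9 lay below 0 in NP+tau liver, with a median of -0.21, led by Eef1d at -0.50 (SE 0.23) and Eef1b2 at -0.58 (SE 0.27), both part of the exchange factor of eEF1A. None of the 10 had an unadjusted p under 0.05. For Eef1d and Eef1b2, NP replicate 1 was the highest and NP+tau replicate 1 the lowest liver. Without these 2 samples, both genes differed by -0.17. For termination and ribosome recycling, 6 of 9 lay below 0, and Dhx29, a helicase for structured leaders, differed by 0.41 (SE 0.17). For poly(A) tail binding, 4 of 10 lay below 0, and Pabpc1, the poly(A)-binding protein that contacts eIF4G, differed by -0.46 (SE 0.24).

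The list of eIF2 phosphatase and stress response genes, which also holds regulators of the eIF2 kinases, had a median of -0.27 in liver. Of its 18 genes, 15 lay below 0, as did 53.7% of all genes. Of the 18, 2 were lower at an unadjusted p under 0.05, against 4.32% of all genes. Asns, asparagine synthetase, was at 9.24, 7.86 and 6.93 in NP liver and at 6.06, 6.34 and 6.16 in NP+tau liver. All NP livers lay above all NP+tau livers, but the NP livers themselves spread from 6.93 to 9.24. The difference was -1.82 (SE 0.53, unadjusted p = 0.011, adjusted p of limma = 0.718), and it was -1.21 without NP replicate 1. Ppp1r15a, which directs a phosphatase to eIF2, differed by -0.83 (SE 0.22). For mTOR and its regulators, 13 of 19 lay below 0 and 3 were lower at an unadjusted p under 0.05, against the same 4.32% of all genes. These were Rictor at -0.95 (SE 0.26), Rragd at -1.67 (SE 0.49) and Sesn1 at -0.83 (SE 0.25), the last named after its values were seen. Rragd was at -1.09 without NP replicate 1. Of 12 genes listed as kinases, inhibitors and relatives of eIF4 factors, 7 lay below 0. Ddx3x, an X-linked helicase of scanning, was at -0.89 (SE 0.26). The list also counts Nat1, at 0.21, an N-acetyltransferase gene in mouse and not a relative of eIF4.

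In muscle, 7 of 10 elongation, 8 of 9 termination and 9 of 10 poly(A) genes lay above 0. Among the last, Larp1, which binds mRNAs that begin with pyrimidines, differed by 0.55 (SE 0.23) and Paip1, a partner of the poly(A)-binding protein, by 0.42 (SE 0.15), both at an unadjusted p under 0.05 (4.24% of all genes higher). Larp1 was at 0.30 without NP+tau replicate 2. Of the 18 stress genes, 12 lay above 0, and Atf3, a transcription factor of the stress response, was at 6.32, 5.97 and 7.28 in NP and at 7.40, 9.04 and 8.31 in NP+tau, a difference of 1.73 (SE 0.48, unadjusted p = 0.0088). The mTOR list was evenly divided, with 10 of 19 above 0, and 5 of the 12 genes in the eIF4 list, Nat1 included, lay above 0.

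Markers of other cells moved with the liver values. All 9 neutrophil genes had a lower mean in NP+tau liver, with a mean level of 8.84 in NP replicate 1, 6.23 and 6.45 in the other NP livers and 5.01 to 5.53 in NP+tau. All 11 macrophage and Kupffer cell genes were lower as well, with mean levels of 9.06 to 9.97 in the NP group against 7.61 to 8.58 in the NP+tau group, and 6 of 7 fibroblast genes. NP replicate 1 thus had the highest neutrophil and macrophage levels and was the highest liver for 24 initiation factors. Among the NP+tau livers the order differed. NP+tau replicate 1, the lowest liver for 29 initiation factors, had the highest neutrophil level of its group at 5.53 and a macrophage level of 8.56, and NP+tau replicate 2 had the lowest macrophage level of 7.61 with a median deviation of the 45 genes of 0.0595. Muscle fibre genes were at 5.31 in NP+tau replicate 1 against 4.54 to 4.65 in the other livers. This array was also the highest liver for pancreatic acinar genes, at 5.42 against 4.98 to 5.10. The same held for Schwann cell and nerve genes, at 6.48 against 6.01 to 6.16, so its higher values were not particular to muscle fibre genes. In muscle, the mean neutrophil level lay between 5.86 and 10.16 for NP animals and between 7.30 and 8.37 for NP+tau animals, and T and B cell genes were at 7.25 in NP+tau replicate 3 against 4.81 to 5.02. The part of these cells in the differences of the initiation factors was not tested.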

How the data were processed

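The values were log2 expression values deposited by the authors, who normalised the Affymetrix mouse arrays of each tissue apart by quantiles and summarised them with RMA. The table held 45101 probe sets, of which 64 were controls and were left out. The absent calls used in the paper were not used here. A probe set was kept in a tissue when its highest value reached the 35th percentile of these highest values, 4.60 in liver and 4.49 in muscle. The diet groups were compared per tissue in limma 3.58.1 (lmFit, then eBayes; R 4.3.3) over all probe sets kept, two-sided, with Benjamini-Hochberg adjustment and a threshold of 0.05. The interaction with tissue was fitted over the 12 samples as independent, although they came from 6 animals, since the labels do not tie replicate numbers across tissues. Its p therefore ignores shared animals. Statmod 1.5.0, the data.table package (1.17.8), Python 3.11.15, pandas 2.3.3 and matplotlib 3.10.9 were also used. Symbols came from the platform annotation of the series, and probe sets with several symbols were not named. Probe sets can hybridise with related transcripts, above all those ending in _s_at and _x_at.

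The members, lists and tests were chosen with earlier results of these data known. Sample values are given for the 8 members with the smallest p per tissue, 4 in the interaction and a fixed set of core factors, and of each list up to 2 genes per tissue. No test was made over the members as a set. The scripts were tested on simulated data. Alternatives were no filter or a filter at the 50th percentile, an intensity trend, array weights, centred arrays, the Xist level as a covariate, a replicate block, other choices of probe set, and omission of replicates. Counts without single named samples, the level for bright genes and the promoter motifs were chosen after seeing the data. Groups followed the sample titles. The 6 arrays per tissue limit the precision.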

Additional observations from a re-analysis of the deposited data

How the results depend on the processing

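In the fits of each tissue, no initiation factor passed the threshold under any alternative run other than the Xist covariate in liver. That fit called 9449 of the 29274 liver probe sets and 12 of the 44 initiation factors tested. The share among initiation factors was thus not above that of all probe sets. Their median was -0.48. The fit compares in effect NP+tau replicate 1, the unlike array, with the NP livers, all with high Xist. In this fit taurine and the unlike array therefore cannot be told apart. Liver probe sets past the threshold numbered 8 with array weights and 10 without replicate 1 of both groups, and 0 to 9 when single replicates were left out, against 0 with all samples. In muscle there were 3 without replicate 1 of both groups and 0 to 8 without single replicates, and in the interaction 0 to 2. Without replicate 1 of both groups, an alternative in which the liver median was 0.0024 with 22 genes below 0, 9 muscle genes lay below 0. Array weights brought the liver median to -0.05, with 25 genes below 0, and the Xist covariate the muscle median to -0.03, with 26 below 0. Without single replicates, 9 to 27 muscle genes lay below 0, the lowest count being without NP replicate 1 and the highest without NP+tau replicate 2.

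Eif3f and Eif4e3 kept their direction under all alternatives in both tissues, and Eif4b in liver. Directions that turned belonged to small differences or to genes that rested on 1 sample. In liver, Eif4e was 0.11 and Eif5a 0.085 with array weights, 0.19 and 0.16 without replicate 1 of both groups, and -0.46 to 0.018 and -0.33 to 0.040 without single replicates. Eif2ak4 was 0.034 with centred arrays and -0.20 to 0.020 without single replicates, and Eif2b5 was -0.37 with the Xist covariate and -0.14 to 0.23 without single replicates. In muscle, array weights gave 0.044 for Eif2b5 and -0.063 for Eif6, and centring gave -0.054 for Eif2ak4 and -0.045 for Eif6. The Xist covariate gave -0.10 for Eif2ak3, -0.028 for Eif2ak4, 0.0021 for Eif2b5, -0.17 for Eif3a, -0.032 for Eif4a1 and -0.25 for Eif6. Without replicate 1 of both groups, Eif2b5 was 0.14, Eif4ebp1 0.65 and Eif5 0.25. Without single muscle replicates, Eif2ak3 ranged from -0.20 to 0.38, Eif2ak4 from -0.077 to 0.074, Eif2b5 from -0.11 to 0.14, Eif3a from -0.15 to 0.40, Eif4a1 from -0.025 to 0.27, Eif4ebp1 from -1.07 to 0.25, Eif5 from -0.42 to 0.17 and Eif6 from -0.39 to 0.26. The causes of these turns were not tested.

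With the replicate number as a replicate block, 0 probe sets passed in liver, in muscle and in the interaction, the medians were -0.21 and 0.07, and no call changed. Numbers did not pair the diet groups, with correlations of deviations of 0.0157, -0.114 and 0.112 in liver and -0.214, -0.271 and 0.334 in muscle. Liver and muscle of the same number had correlations of 0.0109, 0.239 and -0.0424 in NP and 0.224, 0.216 and 0.218 in NP+tau. With the mean of all probe sets of a gene, 34 genes in liver and 21 in muscle lay below 0. Several probe sets were kept for 30 genes in liver and 28 in muscle. For 15 of these genes in each tissue, all kept probe sets had the same sign. The 6 arrays per tissue and dim probe sets such as Eif2ak2, Eif4a3 and Eif5a2 limit what can be seen.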
